A study of Mus musculus with 18 samples.

Results

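In mouse T helper 2 (Th2) cells, 3233 genomic regions carried peaks of dimethylated lysine 79 of histone H3 (H3K79me2) that the rule below found in Th2 cells alone, out of 60558 regions with a peak in any library. To find them, the peaks of all 9 H3K79me2 lists were merged into union regions, and a list was counted as present in a region when its own peaks covered at least 50% of the bases. A Th2-only region was present in at least 2 of the 3 Th2 lists and in none of the 6 lists of naive and T helper 1 (Th1) cells. The same rule turned to the other cell types gave 1624 Th1-only and 8340 naive-only regions. The regions were chosen by the measured peak coverage of all 9 lists, so their coverage in Th2 against naive or Th1 lists is given as a description with no test.

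H3K79me2 is set by DOT1L on the globular part of histone H3 and lies mainly along transcribed genes, from the promoter into the gene body. Th2 cells drive immunity to worms and allergic responses through IL-4, IL-5 and IL-13. Their identity rests on signalling by IL-4 through STAT6 and on the transcription factor GATA3, which is needed for opening the locus that holds the 3 cytokine genes.

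Chromatin immunoprecipitation with sequencing was done on CD4+ T cells, with 3 libraries each of naive, Th1 and Th2 cells, and with 9 input libraries that carry no peak list of their own here. All samples were labelled WT in genotype. Naive cells were CD44- CD62L+ cells taken directly from spleens, whereas enriched CD4+ cells spent 4 days on plate-bound antibodies to CD3 and CD28, with IL-2 throughout, plus IL-12 and an antibody to IL-4 for Th1 or IL-4 and an antibody to IFNg for Th2. Culture and cell type therefore cannot be told apart between naive and polarised cells. Th1 cells were sorted by an IFNg-YFP reporter, and Th2 cells by the 4C13R reporter as cells with IL-4 AmCyan or IL-13 dsRed. The marks at Il4 and Il13 are thus not independent of how the Th2 cells were picked. The 4C13R reporter is a transgene made from the Il4 and Il13 surroundings, so peaks on transgene copies and on the native locus cannot be told apart. Mice with all 3 reporters are named in the design text, and the treatment text names 1 reporter line per cell type. Whether the 3 libraries of each cell type stem from different mice is not in the labels. The p-values then speak only of library-to-library spread, and that spread may be technical.

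Sequences are shown for the start sites on which the Th2-only regions bear most directly: the 3 Th2 cytokine genes, and Efna5 and Tanc2, the 2 genes with the most bases in Th2-only regions. The cytokine promoters were chosen after their values were seen. Each sequence is the 250 bases before the start site on the gene's own strand, 5′ to 3′, from RefSeq on GRCm38.p6, the assembly of mm10. Capitals mark matches to a GATA-type sequence (AGATAA), to an AP-1-type sequence (TGANTCA) or to a STAT-type sequence, which is TTC, then 4 bases of any kind, then GAA. Both strands were searched, and overlapping matches of different motifs were allowed.
Il4, chr11:53618666-53618915, minus strand: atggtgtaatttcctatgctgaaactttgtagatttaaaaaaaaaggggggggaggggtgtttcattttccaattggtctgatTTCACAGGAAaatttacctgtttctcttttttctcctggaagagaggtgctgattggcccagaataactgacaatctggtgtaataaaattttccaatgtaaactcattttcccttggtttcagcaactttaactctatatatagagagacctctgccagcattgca
Il13, chr11:53634703-53634952, minus strand: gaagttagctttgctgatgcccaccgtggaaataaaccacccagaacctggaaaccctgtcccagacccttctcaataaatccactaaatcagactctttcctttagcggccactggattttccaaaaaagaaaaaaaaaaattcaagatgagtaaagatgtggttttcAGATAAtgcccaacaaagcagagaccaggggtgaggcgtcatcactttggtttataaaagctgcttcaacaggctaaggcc
Il5, chr11:53720544-53720793, plus strand: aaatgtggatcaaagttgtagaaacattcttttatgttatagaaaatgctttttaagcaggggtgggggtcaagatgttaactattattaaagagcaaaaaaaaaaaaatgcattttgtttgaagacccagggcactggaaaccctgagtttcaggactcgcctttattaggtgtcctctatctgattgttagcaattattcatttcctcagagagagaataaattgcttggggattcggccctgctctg
Efna5, chr17:62881318-62881567, minus strand: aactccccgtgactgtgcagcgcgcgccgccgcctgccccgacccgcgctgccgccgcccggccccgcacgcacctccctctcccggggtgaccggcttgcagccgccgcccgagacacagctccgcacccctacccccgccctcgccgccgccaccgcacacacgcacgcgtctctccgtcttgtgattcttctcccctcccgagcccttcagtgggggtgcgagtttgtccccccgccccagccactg
Tanc2, chr11:105589736-105589985, plus strand: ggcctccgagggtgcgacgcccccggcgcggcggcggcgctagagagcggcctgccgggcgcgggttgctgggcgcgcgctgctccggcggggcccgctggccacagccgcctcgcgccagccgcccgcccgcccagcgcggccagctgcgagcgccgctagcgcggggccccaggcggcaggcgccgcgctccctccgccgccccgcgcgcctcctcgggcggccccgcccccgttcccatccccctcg

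The cytokine promoters were poor in CpG, with 0 CpG in Il4, 3 in Il13 and 2 in Il5, at a GC content of 37.6%, 43.2% and 37.6%. Efna5 and Tanc2 had GC-rich promoters, with 32 and 46 CpG and a GC content of 74.8% and 85.6%. A STAT-type match stood in the Il4 window and an AGATAA match in the Il13 window. None of the 3 motifs as searched was in the windows of Il5, Efna5 and Tanc2. Other GATA-type sequences were not searched. The Il5 window holds ctatct, which reads AGATAG on the other strand, a GATA-type sequence outside the search. Over all 65 protein-coding promoter entries with a start site in a Th2-only region, the median GC content was 58.0% and the median CpG number 7, beside 55.6% and 10 over all 21045 entries and 60.4% and 17 over the 6457 entries in regions present in all 9 lists. AGATAA was in 6.15% of the 65 windows and in 8.84% of all windows, the STAT-type sequence in 4.62% and 5.44%, and TGANTCA in 6.15% and 6.17%. The shares in the Th2-only set rest on 4, 3 and 4 windows.

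Of the microRNA genes in Th2-only regions, the 5 with the most bases there were examined. Mature sequences are shown for 3 of these 5 genes, those whose regions had little or no peak in other cells. The seed (bases 2 to 8) is in capitals.
mmu-let-7e-5p: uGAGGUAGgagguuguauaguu
mmu-miR-99b-5p: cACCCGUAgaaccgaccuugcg
mmu-miR-193a-5p: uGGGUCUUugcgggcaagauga
mmu-miR-193a-3p: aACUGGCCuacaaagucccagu

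No 2 of these 4 sequences shared a seed. Mirlet7e, a member of the let-7 family, and Mir99b sit side by side in 1 Th2-only region of 4.01 kb, chr17:17826738-17830745. Peaks covered 70.9%, 76.7% and 81.3% of it in Th2 libraries 1 to 3, 6.56% in naive library 3 and nothing in the other 5 libraries. Mir193a lay in a region of 8.07 kb, chr11:79711309-79719380, covered to 98.5%, 83.4% and 67.4% in the Th2 libraries, to 3.18% in Th1 library 1 and to 0% in the rest. Mir1951 and Gm51288, the gene of mmu-miR-12182, were in regions that Th1 peaks touched in 2 and 3 libraries, at up to 17.7% and 33.2%. Peaks do not measure the microRNAs themselves, and a region may belong to a longer host transcript.

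The regions were seldom marked in all Th2 libraries alike. Of the 3233, 907 (28.1%) were present in all 3 Th2 lists, 971 lacked library 1, 963 lacked library 2 and 392 lacked library 3. Th2 library 3, whose peaks covered 250 Mb against 232 and 239 Mb in libraries 1 and 2, held 2841 of the regions, and the others held 2262 and 2270. Without Th2 library 3, and with both remaining lists required, the rule gave 1809 regions, and it gave 2090 without library 1 and 2050 without library 2. In bulk chromatin, more cells with the mark and more mark per cell cannot be told apart.

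The name Th2-only holds for the 50% rule and not for every base. Peaks of all 6 naive and Th1 lists left 1878 regions (58.1%) without any base, and 1355 (41.9%) held some peak bases of at least 1 of those lists. At least 1 Th1 list reached into 1154 regions (35.7%), and at least 1 naive list into 616 (19.1%). In 739 regions Th1 peaks were found with naive peaks at 0, and in 201 regions the reverse held. The naive libraries touched 11.4% to 13.2% of the Th2-only regions and 44.2% to 48.0% of all union regions. For Th1 libraries the shares were 19.3% to 26.9% and 31.6% to 38.2%, and for Th2 libraries 81.9% to 92.9% and 39.4% to 47.8%. All 3 Th1 libraries thus touched more Th2-only regions than any naive library. The naive lists cover 276 to 285 Mb with 38026 to 40455 peaks, and the Th1 lists cover 217 to 240 Mb with 41504 to 46085 peaks. Whether the number and width of peaks have a part in this difference was not tested.

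**Figure D1:**
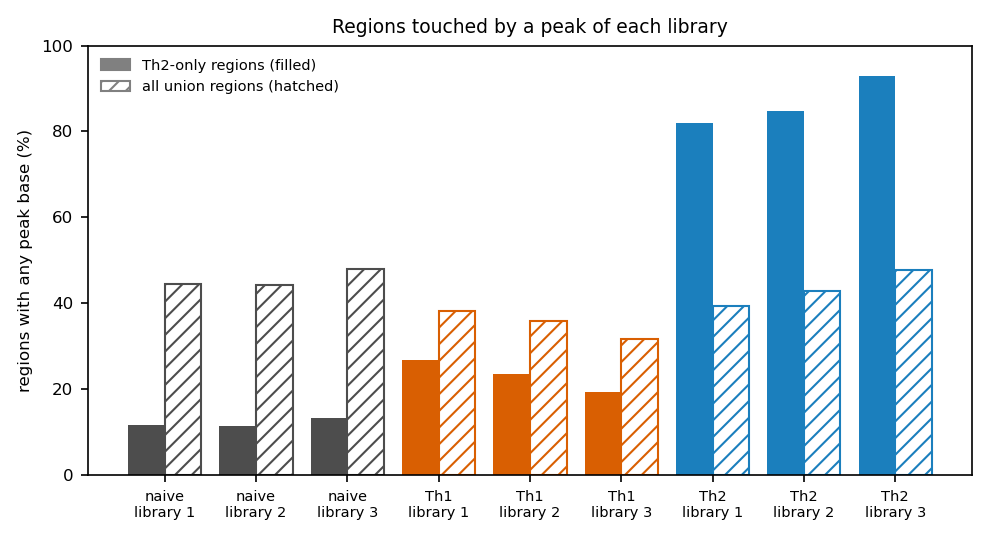
Percent of regions that hold at least 1 peak base of each library, for the 3233 Th2-only regions (filled bars) and for all 60558 union regions (hatched bars). The 3 Th1 libraries touch 19.3% to 26.9% of the Th2-only regions and the 3 naive libraries 11.4% to 13.2%, while the hatched bars are highest in naive library 3.

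Most of the regions were short and weak, and a few were very wide. The median width was 1382 bp, with quartiles of 593 and 2859 bp, against 990 bp over all union regions, 1672 bp for Th1-only and 2603 bp for naive-only regions. There were 1290 regions under 1 kb, of which 10.5% were in all 3 Th2 lists and 85.4% had no base in naive or Th1 lists. Among the 1779 regions of 1 to 10 kb the shares were 34.9% and 41.9%. The 164 regions of at least 10 kb held 38.9% of all 9.85 Mb, 92.1% of them were in all 3 Th2 lists, and 18.3% had no base elsewhere. The 15 widest alone held 13.6% of the bases.

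The highest fold in a region rose with its width. The authors' fold enrichment describes a peak only inside the list it comes from. Its median over the present Th2-only regions was 2.15, 2.07 and 2.11 in Th2 libraries 1 to 3, against 2.61, 2.44 and 2.28 over all regions present in those lists. A peak with −log10 q of at least 5 stood in 5.48%, 5.73% and 6.83% of the Th2-only regions, and in 45.0%, 42.4% and 35.6% of all present regions. The matching shares were 10.0% to 15.3% for Th1-only regions in Th1 lists and 13.0% to 15.2% for naive-only regions in naive lists. Such a peak in all 3 Th2 lists was found in 101 Th2-only regions. The median of the highest fold in a region was 2.10 under 1 kb, 2.27 from 1 to 10 kb and 2.90 from 10 kb upward. This value is the highest over all peaks and Th2 lists in a region. A wider region can hold more of both, so part of the rise may come from how the value is taken.

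**Figure D2:**
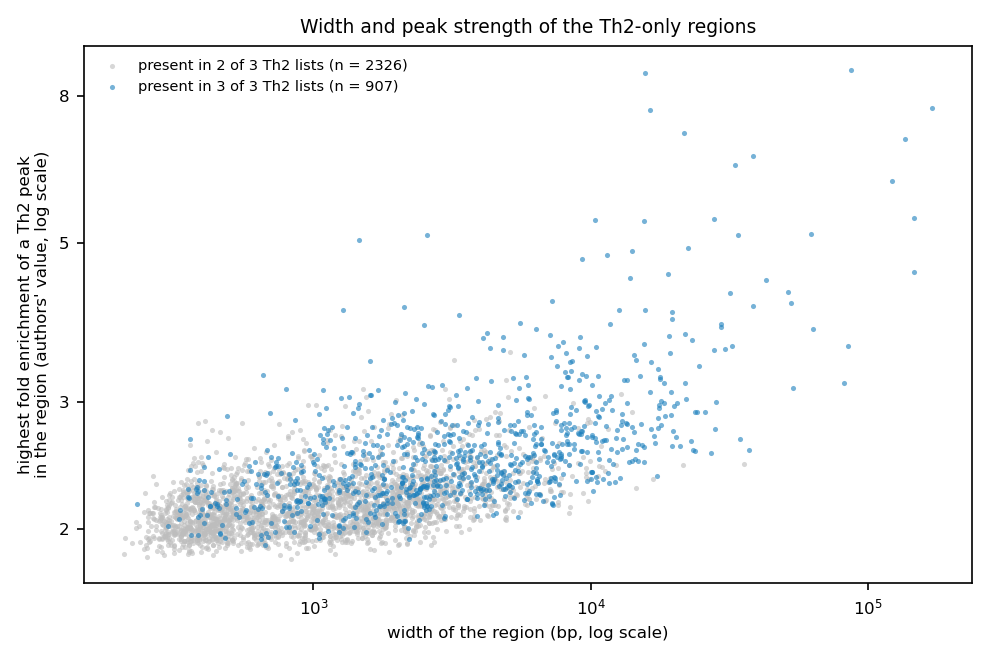
Width of each Th2-only region (horizontal, bp, log scale) against the highest fold enrichment of a Th2 peak in it (vertical, the authors' value, log scale); each point is a region, blue where all 3 Th2 lists were present (n = 907) and grey where 2 were. Regions under 1 kb lie around a fold of 2.10, and nearly all regions of at least 10 kb are blue.

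Fewer Th2-only regions lay in genes than other regions did. A protein-coding gene overlapped 1519 of them (47.0%), compared with 67.1% of all union regions, 63.4% of Th1-only and 76.1% of naive-only regions. A further 320 (9.90%) overlapped a long noncoding RNA gene, and 1332 (41.2%, against 25.2% of all regions) overlapped no annotated gene. The 1714 regions outside protein-coding genes were a median of 30.2 kb from the nearest one, with 435 within 10 kb and 432 beyond 100 kb. A start site lay in 2.72% of the Th2-only regions, in 11.1% of all union regions and in 68.5% of the regions present in all 9 lists. These shares move with width and strength: 54.4% of the regions in all 3 Th2 lists were in protein-coding genes, and 66.2% of the 237 regions found with peaks of −log10 q of at least 5.

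In all, 785 protein-coding genes overlapped a Th2-only region. Of them, 482 had some coverage in every one of the 9 lists, inside or outside the Th2-only region, and 103 had none in any naive or Th1 list. The regions gathered into groups: with gaps of up to 50 kb, 122 groups had at least 5 regions and held 1121 of them, while 942 regions stood alone. Chromosome 15 had the highest share of its union regions in the set, 8.56%, followed by chromosome 14 with 7.77%, and chromosome 5 the lowest, 3.50%.

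The widest Th2-only region spanned the Th2 cytokine locus. It was 169.5 kb long, chr11:53567486-53737003, and held Il4, Il13 and Il5, the gene of the DNA repair protein Rad50 between them, and most of Kif3a, which encodes a kinesin motor. Peaks covered 98.7%, 98.6% and 99.8% of it in the Th2 libraries, 28.4%, 21.5% and 27.1% in the Th1 libraries and 14.9%, 14.6% and 15.7% in the naive libraries. Every Th1 library was above every naive library. With presence set at 25% in place of 50%, the Th1 coverage takes this region out of the set. The strongest peak in it had a fold enrichment of 6.61, 7.69 and 7.33 in the Th2 lists.

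Within the locus, the genes differed in how much of the mark the other cells carried. Il5, which encodes the eosinophil growth factor IL-5, was covered to 78.4%, 100% and 100% in the Th2 libraries and had no base in any naive or Th1 list. Il4 and Il13 were covered to 100% in all 3 Th2 libraries and to 0% in all naive libraries. In Th1 libraries 1 to 3, Il4 was covered to 47.1%, 0% and 21.8% and Il13 to 43.6%, 0% and 9.17%, so that Th1 library 2 had no peak on either gene. Rad50, whose 3′ part is known to hold the locus control region, was covered to 38.7%, 41.0% and 42.4% in naive, to 62.4%, 54.2% and 54.6% in Th1 and to 98.6%, 96.2% and 100% in Th2 libraries. Kif3a, next to Il4, had 94.8%, 94.9% and 96.4% in Th2 libraries, 9.80%, 9.01% and 14.5% in Th1 and 2.08%, 1.59% and 2.72% in naive libraries. The region is thus counted as Th2-only with Rad50 marked over more than 38% of its length in every library.

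**Figure D3:**
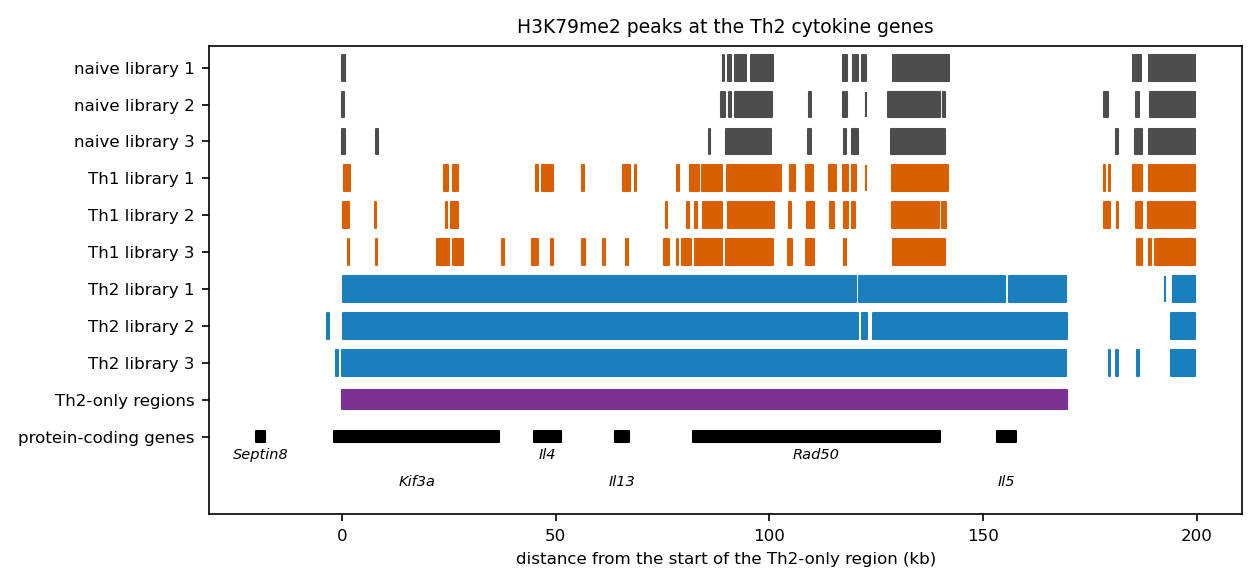
Peaks of the 9 libraries (coloured bars, 1 row a library) at the Th2 cytokine locus, by distance in kb from the start of the 169.5-kb Th2-only region (purple), with the protein-coding genes in black. The Th2 bars run nearly unbroken over the region, while naive and Th1 bars lie mainly on Rad50, with short Th1 bars at Kif3a, Il4 and Il13 and none on Il5.

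The group of Th2-only regions with the most bases lay beside Gata3 and held no protein-coding gene. Gata3 is on the minus strand at chr2:9857078-9887953, and 43 Th2-only regions with 341.3 kb in all were strung out from 15.6 to 632.4 kb beyond its 3′ end. Together they held 275, 280 and 311 kb of peaks in the Th2 libraries, 33.7, 31.0 and 32.2 kb in the naive and 0.993, 1.00 and 0.909 kb in the Th1 libraries. Naive libraries were therefore above Th1 libraries here, opposite to the cytokine locus. Of the 43 regions, 23 were in all 3 Th2 lists and 32 had no base in any naive or Th1 list.

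A pair of them was among the widest of the whole set. A region of 86.6 kb, chr2:9515144-9601774, which overlaps the noncoding gene Gm13218, was covered to 94.5%, 96.4% and 97.3% in Th2, to 8.44%, 5.62% and 7.55% in naive and to 0%, 0.255% and 0% in Th1 libraries. Its strongest peaks had folds of 7.85, 7.13 and 8.69, and no other Th2-only region had a higher lowest fold over the 3 Th2 lists. A region of 63.2 kb nearer to Gata3, chr2:9644952-9708189, was covered to 96.8%, 94.2% and 100% in Th2, to 34.5%, 35.9% and 34.8% in naive and to 1.57%, 0.503% and 1.03% in Th1 libraries. The noncoding gene with the most bases in Th2-only regions, Gm13219 with 51.8 kb, is in this group as well.

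Gata3 itself held no Th2-only region, because naive and Th1 peaks covered most of it. Peaks lay over 74.6%, 76.7% and 74.7% of it in naive, 61.7%, 59.4% and 58.0% in Th1 and 96.9%, 96.6% and 100% in Th2 libraries. The gene was more covered in Th2 than in Th1 cells by 38.1 points (SE 1.48, limma adjusted p = 4.7e-06, n = 3 each). Against naive cells the difference was 22.5 points (SE 1.48, limma adjusted p = 1e-05), short of the 25 points required for a call.

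**Figure D4:**
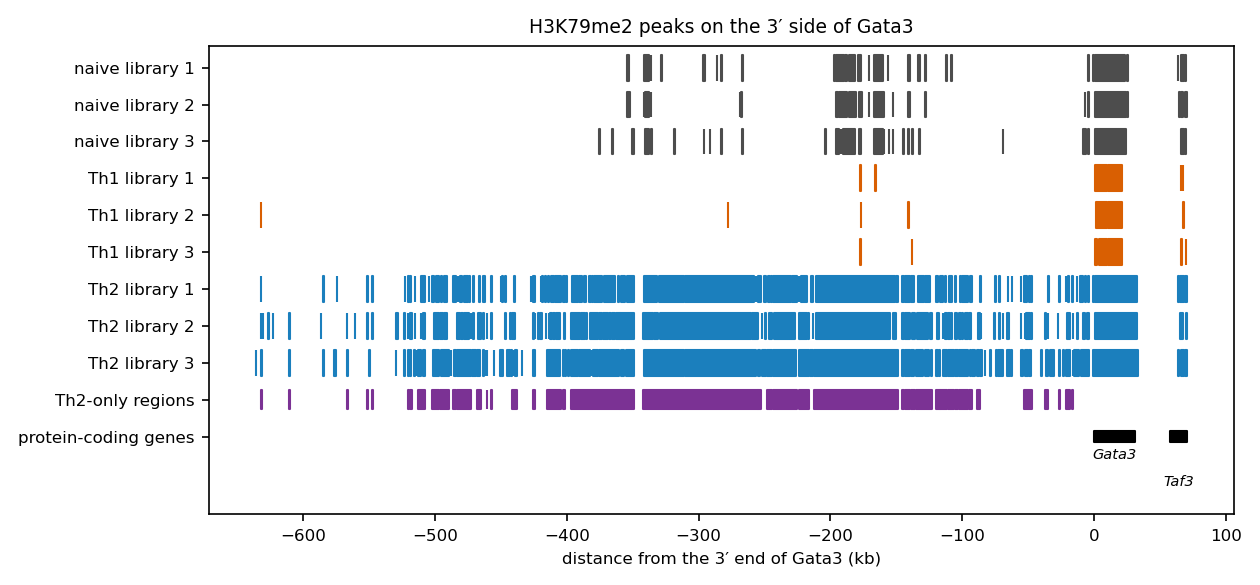
Peaks of the 9 libraries (coloured bars, 1 row a library) by distance in kb from the 3′ end of Gata3, negative values lying downstream of the gene, with Th2-only regions in purple and protein-coding genes in black. Th2 peaks run over much of the downstream stretch, naive peaks form short blocks in it and Th1 peaks are nearly absent there, while all 9 libraries have peaks on Gata3.

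Several of the wide regions had no or almost no base in naive and Th1 cells. Efna5 encodes ephrin-A5, a membrane-bound ligand of Eph receptors, and 94.2% of its 278.4 kb lay in 3 Th2-only regions. The largest, chr17:62738517-62884489 (146.0 kb), was covered to 99.1%, 99.8% and 100% in the Th2 libraries and the next, chr17:62651893-62736541 (84.6 kb), to 97.5%, 97.6% and 99.0%. Both had 0% in all 6 naive and Th1 libraries. The promoter printed above for Efna5 lies inside the larger one.

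Tanc2, the gene of a synaptic scaffold protein, held 12 Th2-only regions over 63.6% of its 339.8 kb. Its widest, chr11:105584305-105706016 (121.7 kb), includes the promoter printed above and was covered to 99.5%, 98.5% and 100% in Th2 libraries, with at most 0.533% in naive and 0.764% in Th1 libraries. The second, chr11:105711137-105764920 (53.8 kb), was covered to 99.3%, 98.2% and 99.9% in Th2 libraries and to 0% in the 6 others. Marchf10, which encodes an E3 ubiquitin ligase and lies beside Tanc2 on chromosome 11, was covered to 64.6%, 62.0% and 65.7% in Th2 libraries and to 0% in the 6 others.

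Adamtsl3, the gene of a secreted matrix protein, had 14 Th2-only regions and was covered to 36.6%, 34.3% and 44.3% in Th2 libraries with no base in the other 6. Cacna1c encodes the pore subunit of an L-type calcium channel and overlaps another protein-coding gene. Its widest region, chr6:119057095-119108435 (51.3 kb), was covered to 95.1%, 95.2% and 100% in Th2 libraries, to 0% in naive and to at most 1.19% in Th1 libraries. Nfia, the gene of a transcription factor of the nuclear factor I family, held 24 regions, and its coverage was uneven among the Th2 libraries, 21.1%, 25.8% and 41.4%, against at most 0.486% in naive and 1.56% in Th1 libraries. Mei4, known for its role in meiotic recombination, was covered to 15.9%, 17.2% and 24.9% in Th2 libraries and to at most 0.094% elsewhere.

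**Figure D5:**
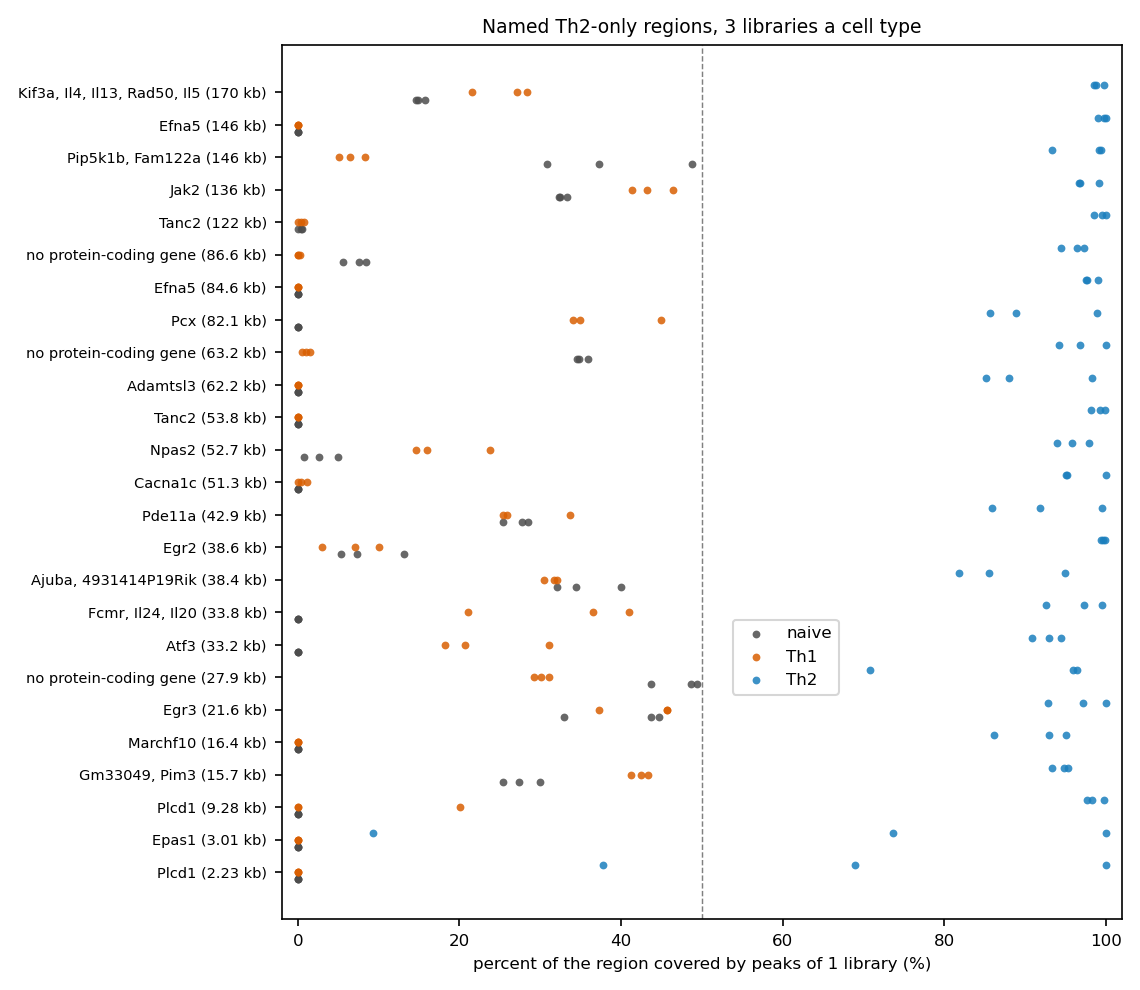
Percent of each named Th2-only region covered by the peaks of 1 library (horizontal), with 3 naive (grey), 3 Th1 (orange) and 3 Th2 (blue) libraries in each row and the 50% threshold dashed. Efna5, Tanc2, Adamtsl3 and Marchf10 sit at or near 0 in all 6 naive and Th1 libraries, while Jak2, Egr3 and Pip5k1b have values up to the threshold, and the shortest regions, at Epas1 and Plcd1, have 1 Th2 library below it.

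Other wide regions were covered in part in naive cells, Th1 cells or both, to differing extents. Jak2 encodes a kinase of cytokine receptors, and a region of 136.0 kb, chr19:29173729-29309692, ran from upstream of the gene over most of it. It was covered to 96.8%, 96.7% and 99.1% in Th2, to 46.5%, 41.4% and 43.3% in Th1 and to 32.3%, 33.3% and 32.5% in naive libraries. Coverage of the gene itself was 92.3 ± 0.913% (SD, n = 3) in Th2 cells, 65.1 ± 5.60% (SD, n = 3) in Th1 cells and 65.3 ± 1.81% (SD, n = 3) in naive cells. The Jak2 region thus passed the rule through its upstream part, and the gene did not lack the mark in any library.

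Of the immediate-early factors, Egr2 had a region of 38.6 kb, chr10:67498179-67536788, covered to 99.7%, 99.5% and 99.9% in Th2 libraries, to 13.1%, 5.30% and 7.33% in naive and to 10.1%, 7.09% and 2.95% in Th1 libraries. Most of that region is annotated as the noncoding gene Gm32255. The region at Egr3, of 21.6 kb, was covered to 92.8%, 100% and 97.1% in Th2 libraries and to between 33.0% and 45.7% in the other 6. Atf3, which encodes a stress-induced factor, lay whole in a region of 33.2 kb, and the gene was covered to 93.7%, 100% and 95.6% in Th2, to 75.1%, 49.0% and 46.5% in Th1 and to 0% in naive libraries. At the kinase gene Pim3 a region of 15.7 kb was covered to between 93.3% and 95.3% in Th2, between 41.3% and 43.4% in Th1 and between 25.4% and 30% in naive libraries.

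Pde11a, which encodes a phosphodiesterase, had 18 regions, and its widest, of 42.9 kb, was covered to 85.9%, 91.9% and 99.6% in Th2 libraries and to between 25.4% and 33.7% in the other 6. Npas2, a partner of the circadian factor BMAL1, had a region of 52.7 kb covered to 95.9%, 97.9% and 93.9% in Th2, to 14.6%, 16.0% and 23.9% in Th1 and to 0.774%, 2.60% and 4.96% in naive libraries. Adk, the gene of adenosine kinase, held the most regions of any named gene, 25, and its coverage was 54.8 ± 2.63% in Th2, 25.3 ± 1.38% in naive and 13.3 ± 1.40% in Th1 cells (SD over 3 libraries). Tg, the thyroglobulin gene, overlaps another protein-coding gene and was covered to between 76.4% and 85.4% in Th2 libraries and between 40.1% and 44.4% in the other 6. Hivep3, which encodes a zinc finger protein, was covered to between 45.9% and 49.0% in Th2 libraries and between 26.3% and 31.2% in the other 6.

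At least 50% of the length lay in Th2-only regions for 59 protein-coding genes, Efna5, Tanc2 and Jak2 among them, and further ones are described here. Cd83, an activation marker that limits loss of MHC class II from the surface, was covered to 100%, 81.6% and 72.1% in Th2 libraries, to between 2.79% and 4.86% in naive and to 0% in Th1 libraries. Timd2, a receptor of the TIM family, was covered to 75.2%, 56.3% and 70.9% in Th2 libraries and had no base elsewhere. Inhba, which encodes a subunit of activin A, had 48.1%, 48.9% and 48.3% in Th2 libraries and 0% in the other 6. Sdc1, which encodes the proteoglycan syndecan-1, was covered to 63.7%, 41.8% and 68.2% in Th2 libraries, with 5.44%, 6.42% and 0.896% in Th1 and 0% in naive libraries. Cystm1 reached 93.1%, 90.9% and 93.2% in Th2 libraries and 17.8%, 7.35% and 3.11% in Th1 libraries. Gna15, the gene of a G protein alpha subunit, was covered to 77.5%, 88.3% and 92.2% in Th2 libraries and to between 30.4% and 58.1% in all 6 others. At 4931414P19Rik, which lies 99.07% in a Th2-only region, coverage was 75.3%, 68.7% and 90.4% in Th2, 54.8%, 47.5% and 62.1% in naive and 23.8%, 25.4% and 21.4% in Th1 libraries. Prxl2a varied most among Th2 libraries, at 65.9%, 37.8% and 88.7%.

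The comparison of Th1 with naive cells is the contrast outside the rule, although the rule held both under 50% in every region. Percent covered was tested with limma in 1 fit of the 9 libraries, and a call needed 25 points or more along with a p under 0.05 after Benjamini-Hochberg adjustment over all regions. Of the 3233 Th2-only regions, 57 were called higher in Th1 than in naive cells (1.76%, beside 4.88% of all 60558 regions), and 11 were called lower (0.340%, beside 17.2%). Since the rule holds both sides under 50% in every one of these regions, it limits both counts, and nothing is read from their place below the background. The median difference over all regions was -8.79 points and that of the Th2-only regions 0. With each library centred on the mean of all libraries, 178 were called higher and 1 lower, and all 57 were among the 178. Leaving out 1 library gave 36 to 63 higher and 5 to 15 lower. The number higher fell by over 1.5 times without Th1 replicate 1 (36) and Th1 replicate 2 (37). The number lower moved by over 1.5 times without naive replicate 1 (7), naive replicate 3 (6), Th1 replicate 2 (6) and Th1 replicate 3 (5).

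Among the named regions, 2 were higher and 2 lower in Th1 than in naive cells, and these 4 calls held with each library left out in turn. At Pcx, the gene of pyruvate carboxylase, a region of 82.1 kb, chr19:4503711-4585812, was covered to 45.0%, 34.1% and 34.9% in Th1 and to 0% in naive libraries, a difference of 38.0 points (SE 8.0, limma adjusted p = 0.0031). It was covered to 85.6%, 88.9% and 99.0% in Th2 libraries. Pcx overlaps another protein-coding gene. The region of Il24 and Il20, 2 cytokines of the IL-10 family, and of Fcmr, the Fc receptor of IgM, chr1:130874609-130908446 (33.8 kb), was covered to 41.0%, 36.5% and 21.1% in Th1 and to 0% in naive libraries, a difference of 32.9 points (SE 8.25, limma adjusted p = 0.0094). In the Th2 libraries it was covered to 97.3%, 92.6% and 99.5%. Il24 itself was covered to 100% in all Th2 libraries and to 100%, 100% and 79.1% in the Th1 libraries, so that the gene was marked in both helper lineages and only its surroundings differed by the rule.

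The 2 regions lower in Th1 than in naive cells were the 63.2-kb region beside Gata3, with -34.1 points (SE 7.22, limma adjusted p = 0.0032), and a region of 146.0 kb at Pip5k1b, with -32.3 points (SE 7.39, limma adjusted p = 0.0053). Pip5k1b encodes a kinase that makes the membrane lipid PIP2 and overlaps another protein-coding gene, Fam122a. Its region, chr19:24412036-24558002, was covered to 37.3%, 30.8% and 48.8% in naive, to 8.37%, 5.16% and 6.41% in Th1 and to 99.1%, 93.4% and 99.4% in Th2 libraries. Both lower calls were lost when libraries were centred, with the median of all regions at -8.79 points, while those of Pcx and of Il24 and Il20 held. With centring, the named regions at Atf3, Pim3 and Npas2 were called higher in Th1 than in naive cells as well.

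For the contrasts the rule used, 1858 Th2-only regions were called higher in Th2 than in naive cells (beside 6.92% of all regions) and 1416 higher in Th2 than in Th1 cells (beside 3.93%). Lower calls were 0 in both contrasts (beside 15.8% and 1.94%), as the rule sets, and nothing is read from these counts. Short regions could pass the rule with a wide spread between Th2 libraries. At Epas1 the 3.01-kb region was covered to 9.30%, 73.7% and 100% in Th2 libraries and to 0% elsewhere. At Plcd1 a 2.23-kb region was covered to 69.0%, 100% and 37.7%.

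A list of 63 genes, known for roles in Th2 cells or placed in or near the cytokine locus, was used to see which of them the Th2-only regions reached. Rad50, Kif3a, Septin8, Irf1 and Slc22a5 were listed for their place at that locus. The counts below, set beside those of all genes, include them and are a description. Of these, 8 held a Th2-only region: Il4, Il5, Il13, Rad50 and Kif3a in the cytokine locus, and Il24, Plcd1 and Epas1. Over all 21631 protein-coding genes, 785 held one. The named genes of the cytokine locus share the same 169.5-kb region. Plcd1, which encodes a phospholipase C, was covered to 49.2%, 51.7% and 45.1% in Th2 libraries, to 8.5% in Th1 library 1 and to 0% in the other 5. In Epas1, the gene of the hypoxia factor HIF-2α, 1.32% of the length was in a Th2-only region, and 56.4%, 58.8% and 65.2% of the gene was covered in Th2, 33.1%, 43.9% and 44.2% in naive and at most 1.21% in Th1 libraries.

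Of the other 55 genes of the list, 38 could be tested. Leaving out the genes that hold a Th2-only region draws on the same 9 lists, so the counts below are a description, and the background shares include genes that hold such regions. Over all 46 genes of the list that could be tested, 17 were called higher and 3 lower in Th2 than in naive cells, and 9 higher and 3 lower in Th2 than in Th1 cells. Between Th1 and naive cells, 13 of the 38 were called higher in Th1 (beside 4.38% of genes) and 2 lower (beside 16.3%). Compared with naive cells, 10 were called higher in Th2 (beside 4.26% of all 11600 genes tested), namely Il10, Crlf2, Il2ra, Maf, Nfil3, Rbpj, Socs2, Septin8, Asb2 and Cysltr1, and 3 lower (beside 15.4%), namely Il17rb, Nt5e and Il18r1. Il10 and Nfil3 were covered to 100% in all Th2 and all Th1 libraries, and so was Maf, a factor that drives Il4 transcription. In naive libraries Il10 was at 0%, Nfil3 at 9.30%, 2.59% and 6.71% and Maf at 0%, 33.3% and 0%. Compared with Th1 cells, 2 of the 38 were called higher in Th2 (beside 2.08%), Gata3 and Septin8, and 3 lower (beside 1.56%), Il1rl1, Furin and Il18r1. Il1rl1, the gene of the IL-33 receptor ST2, was covered to 40.1%, 34.1% and 17.9% in Th1 libraries and to at most 0.860% in naive and Th2 libraries. The call of Septin8, which lies beside Kif3a, was 26.0 points (SE 6.64, limma adjusted p = 0.038) and was lost without any 1 of the 3 naive libraries, of the 3 Th2 libraries or of Th1 replicates 2 and 3. It remained without Th1 replicate 1. The Th1 list held no Th2-only region, and 0 of its 22 genes were called higher and 12 lower in Th2 than in Th1 cells.

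Markers of other cells that a sort of cultured T cells could hold were examined next. The 7 T lineage markers were covered in every group. Of the mast cell and basophil markers, Fcer1a, Ms4a2, Mcpt8, Gata2 and Prss34 had no base in any library, and the summed coverage of all 9 was 46.1 to 50.5 points in naive, 6.24 to 7.97 in Th1 and 3.51 to 19.3 in Th2 libraries. Hdc, the histidine decarboxylase gene, was the member of that list with a Th2-only region, at a gene coverage of 1.31%, 2.64% and 12.3% in Th2 and 14.8% to 17.0% in naive libraries. Of 5 eosinophil markers Siglecf, Epx, Prg2 and Il5ra were at 0 everywhere, and the list summed to 0 in naive, 22.5 to 51.7 points in Th1 and 7.6 to 29.8 points in Th2 libraries. Of 6 innate lymphoid (ILC2) markers Areg, Klrg1 and Arg1 were at 0 in all 9 libraries, and the list summed to 63.6 to 94.2 points in naive, 28.9 to 51.6 in Th1 and 9.08 to 9.86 in Th2 libraries. The other 3 were Il1rl1, given above, Rora, at 8.90% to 11.6% in every library, and Il17rb, at 54.2% to 85.1% in naive and 0% in Th1 and Th2 libraries. At 0 in all 9 libraries were also 4 of 5 B cell markers, with Cd79a at 100% in each, and 4 of 5 myeloid markers, with Itgam at 0% in Th2 libraries.

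The 6 natural killer and cytotoxic markers held no Th2-only region and summed to 228 to 250 points in naive, 240 to 255 in Th1 and 105 to 126 in Th2 libraries, with Ncr1 at 0 in all 9. Tyrobp, which encodes the adaptor DAP12, was covered to 100%, 100% and 78.95% in Th2, to 55.4%, 42.1% and 37.4% in Th1 and to 100% in naive libraries, and was called higher in Th2 than in Th1 cells (48.0 points, SE 6.55, limma adjusted p = 0.0026). Prf1, the perforin gene, and Klrd1 were called lower in Th2 than in Th1 cells, by limma, with at most 16.9% and 10.3% in Th2 libraries against at least 99.8% and 100% in Th1 libraries.

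Zbtb16, which encodes the factor PLZF of natural killer T (NKT) cells, was covered to 54.9%, 38.1% and 82.5% in Th2 libraries, to 57.3%, 5.05% and 0% in Th1 and to 0% in naive libraries, holds a Th2-only region and overlaps another gene. Th1 library 1 was above Th2 libraries 1 and 2, and Th2 against Th1 was no call (37.7 points, SE 16.5, limma adjusted p = 0.19). Whether NKT cells in the sort had a part in any Th2-only region was not tested.

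Just inside the 50% threshold, the second highest Th2 list stood at 50% in regions of 0.530, 0.866 and 1.10 kb, and just outside at 49.98%, 49.95% and 49.95% in regions of 2.36, 6.92 and 1.80 kb. On the side of the other cells, the highest naive or Th1 list stood at 49.98%, 49.98% and 49.97% just inside, in regions of 5.44, 2.50 and 5.32 kb, and at 50%, 50% and 50.06% just outside, in regions of 0.646, 0.370 and 2.37 kb.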

How the data were processed

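H3K79me2 peaks of 9 libraries (naive, Th1 and Th2 CD4+ T cells, 3 each) were analysed, and the 9 inputs entered no comparison. The submitters' processing notes name MACS2, Bowtie2, SAMtools, Picard and the build mm10, and versions and settings are not given in the sources used here. The authors deposited 1 broad peak list per library, so peaks were called per library. For each peak they deposited a score, a fold enrichment ratio and −log10 p and q values, and the score was 10 times −log10 q, truncated, in all but at most 5 peaks of a list. Read depth is unknown, so a deeper or cleaner library can yield more peaks, and no counting interval was set.

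Peaks on chromosomes 1 to 19 and X were merged into union regions, and the percent of each region or annotated gene covered by a library's merged peaks was computed (Python 3.11.15, pandas 2.3.3). Genes and lengths came from RefSeq on GRCm38.p6, without exons, and promoters and microRNAs from RefSeq tables of that build. All coordinates are 1-based. Percent covered was fitted with limma 3.58.1 (R 4.3.3, variance trend, 6 residual degrees of freedom), and genes or regions were called at an adjusted p under 0.05 and at least 25 points. The fit was tested on simulated data, where most regions moved by 50 points were not recovered, while nearly all genes moved by 30 points were. Each shift was a rise in the simulated Th1 group, the same in all 3 of its libraries. Only regions and genes with lower coverage in naive cells were moved. The recovery therefore does not cover falls or features well covered in naive cells. Nor does it cover shifts that vary between libraries, as some did in the real data.

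No 2 lists shared more than 1 identical peak. The Th2-only regions, the gene lists and the tests were chosen with earlier results of these data known. Regions were named when they were in all 3 Th2 lists and among the 15 widest or the 10 with the highest fold in their weakest Th2 list, or when they overlapped a gene of the Th2 list. Genes were named when they were among the 15 with the most bases in such regions, or had at least 50% of their length there without overlapping another gene, up to 20. Promoters were to be at most 8, by bases in such regions, and the 3 cytokine promoters shown are outside that number. Alternatives were other thresholds of presence, stronger peaks, joined gaps, a minimum width, matched covered length, centred libraries, a replicate block and leaving out each library. Some named genes are not reported here.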

Additional observations from a re-analysis of the deposited data

How the results depend on the processing

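The number of Th2-only regions depends on how presence is set. It was 3233 as reported, 3713 with presence at 25%, 1693 with presence at 75%, 1878 with no base allowed in naive or Th1 lists, 907 with all 3 Th2 lists required, 1943 with regions of at least 1 kb, 2762 with gaps of up to 1 kb joined, 237 with peaks of −log10 q of at least 5 and 1586 with the strongest peaks of each list kept up to the same covered length. Leaving out 1 library gave 1809 to 3694. Of the 3233 regions, 111 overlapped the 237, and 799 overlapped the 1586. Of the 25 named regions, 22 overlapped the 237, 23 the 1586, 23 those of presence at 75%, 13 those of presence at 25% and 7 those with no base in naive or Th1 lists. At 25% the lost regions include the cytokine locus, the 63.2-kb region beside Gata3 and those at Jak2, Egr3, Atf3, Pim3, Pcx, Il24 and Il20, Pip5k1b, Pde11a and Ajuba. The short regions at Plcd1 (2.23 kb) and Epas1 (3.01 kb) had no peak of that strength, and the region at Pcx kept peaks but no longer met the rule.

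Over all union regions, limma called 13354 (Th1 against naive), 13783 (Th2 against naive) and 3558 (Th2 against Th1). Peaks of −log10 q of at least 5 gave 4139, 4095 and 742, with 11392 regions tested, and matched covered length gave 6166 and 5570 for the first 2 contrasts. With 1 library left out the counts ran from 11146 to 12867, from 11579 to 12888 and from 2196 to 3154, the lowest of the last without Th1 replicate 2. Over genes the counts were 2403, 2275 and 422, and 2327 to 2559, 2183 to 2351 and 398 to 424 with 1 library left out. The higher share of region calls was 22.1%, 30.4% and 67.0% and moved to 39.5%, 41.1% and 51.9% with centred libraries, to 63.1%, 58.9% and 43.7% with matched length, to 19.95% (Th2 against naive) and 49.5% (Th2 against Th1) with stronger peaks, and to 52.9% (Th2 against Th1) without Th1 replicate 3. For genes it was 21.1%, 21.7% and 57.1%, and 38.5% and 39.8% with centred libraries, 44.2%, 40.9% and 43.1% with matched length and 45.3% (Th2 against Th1) with stronger peaks. The cause of these shifts was not tested.

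With a replicate block, limma called 14023, 14498 and 3519 regions and 2383, 2261 and 393 genes, and 42 and 8 Th2-only regions higher and lower in Th1 than in naive cells in place of 57 and 11. Deviations from the group mean correlated at -0.0193 to 0.0179 between same-numbered libraries of different cell types and at -0.015 to 0.0133 between other-numbered ones. Whether equal numbers pair the samples is not in the labels and cannot be told from these values. Of 558 values of named regions and genes with 1 library left out, 521 moved by less than the spread between libraries. Of 62 such values, 50 moved by more with peaks of −log10 q of at least 5 (6 of them to 0), 29 with matched covered length and 6 with joined gaps. No value changed its sign, but the rule by which these regions and genes were chosen favours a positive sign, so nothing is read from this.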

Other observations

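Other groups of Th2-only regions overlapped no protein-coding gene. The largest in number, 47 regions at chr15:5256839-5963339, had Ptger4, the gene of the prostaglandin E2 receptor EP4, as its nearest protein-coding gene at 12.7 kb. Peaks covered 65.5%, 51.3% and 76.1% of these regions in the Th2 libraries, 4.16%, 1.20% and 2.54% in the Th1 and 0%, 0% and 0.497% in the naive libraries. A group of 25 regions at chr15:61385988-61692451 was 292.9 kb from Myc, its nearest protein-coding gene, and was covered to 74.6%, 61.2% and 76.7% in Th2 libraries, to between 8.21% and 14.1% in naive and between 4.95% and 7.32% in Th1 libraries. A group of 13 regions at chr6:127155748-127319674 was 3.56 kb from Ccnd2, the cyclin D2 gene, and held much of the noncoding gene 9330179D12Rik. It was covered to 77.7%, 75.6% and 80.7% in Th2 libraries and to between 11.3% and 17.6% in the other 6.

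In genes, further groups lay in Syk, which encodes a kinase of antigen receptors (11 regions), and in Cd200 (14 regions with its neighbour Gm609). The Cd200 group was covered to 89.4%, 70.4% and 79.1% in Th2 libraries, to 9.86%, 13.5% and 13.8% in Th1 and to at most 0.417% in naive libraries. Of 20 prostaglandin and leukotriene genes, 2 held a Th2-only region, Ptges and Tbxas1, beside 785 of all 21631 protein-coding genes. Of 11 genes of DOT1L and its partners, 1 did: Ell2, which encodes an elongation factor and was covered to 90.3%, 84.2% and 91.2% in Th2, to 81.4%, 76.8% and 68.1% in Th1 and to 0% in naive libraries.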
